A study of Drosophila melanogaster with 60 samples.

Results

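Heads of control flies collected in the early night, at Zeitgeber time (ZT) 15, were compared with heads of the same genotype collected in the morning, at ZT3, where ZT counts hours from lights on. The 6 libraries (3 at ZT15 and 3 at ZT3) are those labelled conRNAi at these times in a series of 60 libraries of Drosophila melanogaster heads, made by 3′ RNA-seq, which reads the poly(A) end of transcripts. The conRNAi flies carry the Tim-gal4 driver and UAS-Dcr2, and served as controls for RNAi against cabut (cbt), a zinc finger transcription factor. The driver acts in cells that express timeless, so the controls express Dicer-2 from a transgene in those cells, and all 6 libraries share this. Values were also taken from 12 further conRNAi libraries at ZT7, ZT11, ZT19 and ZT23, from the libraries labelled RNAi (Tim-gal4 with UAS-cbt RNAi, 3 at ZT15 and 3 at ZT3) and from conOE heads (Tim-gal4 without a UAS construct, 2 at ZT15 and 2 at ZT3). The labels give no sex, age or number of flies per library. They do not say that replicates came from separate flies either. The p-values of the main fit describe variation within times among all 18 conRNAi libraries, which may be technical.

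The fly clock is a feedback loop of transcription. The activators Clock (Clk) and cycle (cyc) switch on period (per) and timeless (tim), whose proteins later block them, and also vrille (vri) and PAR-domain protein 1 (Pdp1), which in turn repress and activate Clk. Heads hold the brain, the compound eyes, the head fat body, muscle and cuticle-forming cells, and several of these tissues, the photoreceptors among them, have clocks of their own. Of the marker lists, 30 of 32 photoreceptor and 14 of 14 pan-neuronal genes were measured, that is, had reads in every library. Being measured does not by itself identify the tissue, which is taken from the label.

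Of 7444 genes with reads in every library, 97 differed between ZT15 and ZT3 at an adjusted p under 0.05 (limma with Benjamini-Hochberg adjustment), which is 1.3% of the genes tested. At ZT15, 40 genes were higher (0.537% of those tested) and 57 were lower (0.766%). The median log2 difference was 1.06 over the 40 genes and -0.85 over the 57 genes, against a median size of 0.16 over all genes. More than 2-fold differences were seen for 23 of the higher and 20 of the lower genes. In all 97 genes the 3 ZT15 values lay apart from the 3 ZT3 values, as they did in 1007 of all 7444 genes (13.5%). Replicate numbers paired the libraries by a correlation rule only, and the labels do not say that the numbers link libraries. A fit with the replicate number as a block called 154 genes (2.07% of genes), which included the 97, with 58 higher (0.779%) and 96 lower (1.29%). The count rested on ZT15 replicate 2 more than on the other libraries, with 59 genes called without it (27 higher and 32 lower), and 37 genes were called lower without ZT3 replicate 1. Read totals recovered from the values were 15622462, 2750021 and 5229680 in ZT15 replicates 1 to 3, against 5496375, 2652930 and 3487136 in ZT3 replicates 1 to 3.

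Among the core clock genes, 7 of 8 were measured (per was not analysed here), and 5 of the 7 passed (71.4%, against 1.3% of all genes). Of these, tim, vri and Pdp1 were higher and Clk and cry lower at ZT15. The list holds genes of the clock itself, so its share is not independent evidence of a difference with time. The gene tim (CG3234), whose protein pairs with PER, had normalised read counts (reads divided by a size factor of the library) of 603.6, 577.0 and 632.5 in ZT15 replicates 1 to 3, against 59.8, 43.7 and 66.6 in ZT3 replicates 1 to 3, an order kept in all lists of values. Differences are ZT15 minus ZT3 on the log2(value + 1) scale. All ZT15 libraries were thus far above all ZT3 libraries, at 10.7 times the ZT3 mean, with a log2 difference of 3.41 (SE 0.145, limma adjusted p = 1.71e-13). The repressor gene vri (CG14029) had 356.0, 341.1 and 284.6 at ZT15, against 22.4, 19.4 and 32.4 at ZT3. Its log2 difference of 3.70 (SE 0.187, limma adjusted p = 3.58e-12) was the largest of all called genes, and its mean was 13.2 times the ZT3 mean. Both genes passed whichever of the 6 libraries was left out.

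The activator gene Pdp1 (CG17888) had 279.3, 362.2 and 301.8 at ZT15, against 157.6, 185.6 and 175.6 at ZT3. The groups lay apart, but the log2 difference of 0.85 (SE 0.21, limma adjusted p = 0.04) was smaller than for tim and vri. Clk (CG7391) ran the other way, with 16.1, 18.8 and 15.3 at ZT15, against 40.3, 50.9 and 37.0 at ZT3, a log2 difference of -1.29 (SE 0.3, limma adjusted p = 0.0248). The blue-light receptor gene cry (CG3772) was also lower, at 157.2, 115.2 and 101.8 in ZT15 heads, against 198.5, 243.8 and 194.1 in ZT3 heads (log2 difference -0.78, SE 0.166, limma adjusted p = 0.0118). With any 1 of the 6 libraries left out, neither Pdp1 (limma adjusted p 0.0617 without ZT15 replicate 1 to 0.231 without ZT15 replicate 2) nor Clk (0.0506 without ZT3 replicate 3 to 0.142 without ZT3 replicate 2) passed. For cry the limma adjusted p was 0.0687 without ZT15 replicate 2, 0.101 without ZT15 replicate 3 and 0.0983 without ZT3 replicate 2. Directions did not change in any of these fits.

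The remaining 2 measured core genes did not pass. For cwo (CG17100), a repressor of the basic helix-loop-helix Orange family, values were 66.0, 109.7 and 65.0 at ZT15, against 61.6, 58.2 and 54.5 at ZT3 (log2 difference 0.42, SE 0.216, limma adjusted p = 0.619). Its ZT15 libraries all lay above its ZT3 libraries, by little in replicates 1 and 3. For cyc (CG8727), the partner of Clk, values of 56.4, 42.1 and 48.5 at ZT15 overlapped those of 53.5, 37.6 and 68.4 at ZT3 (log2 difference -0.09, SE 0.273, limma adjusted p = 0.984).

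**Figure D1:**
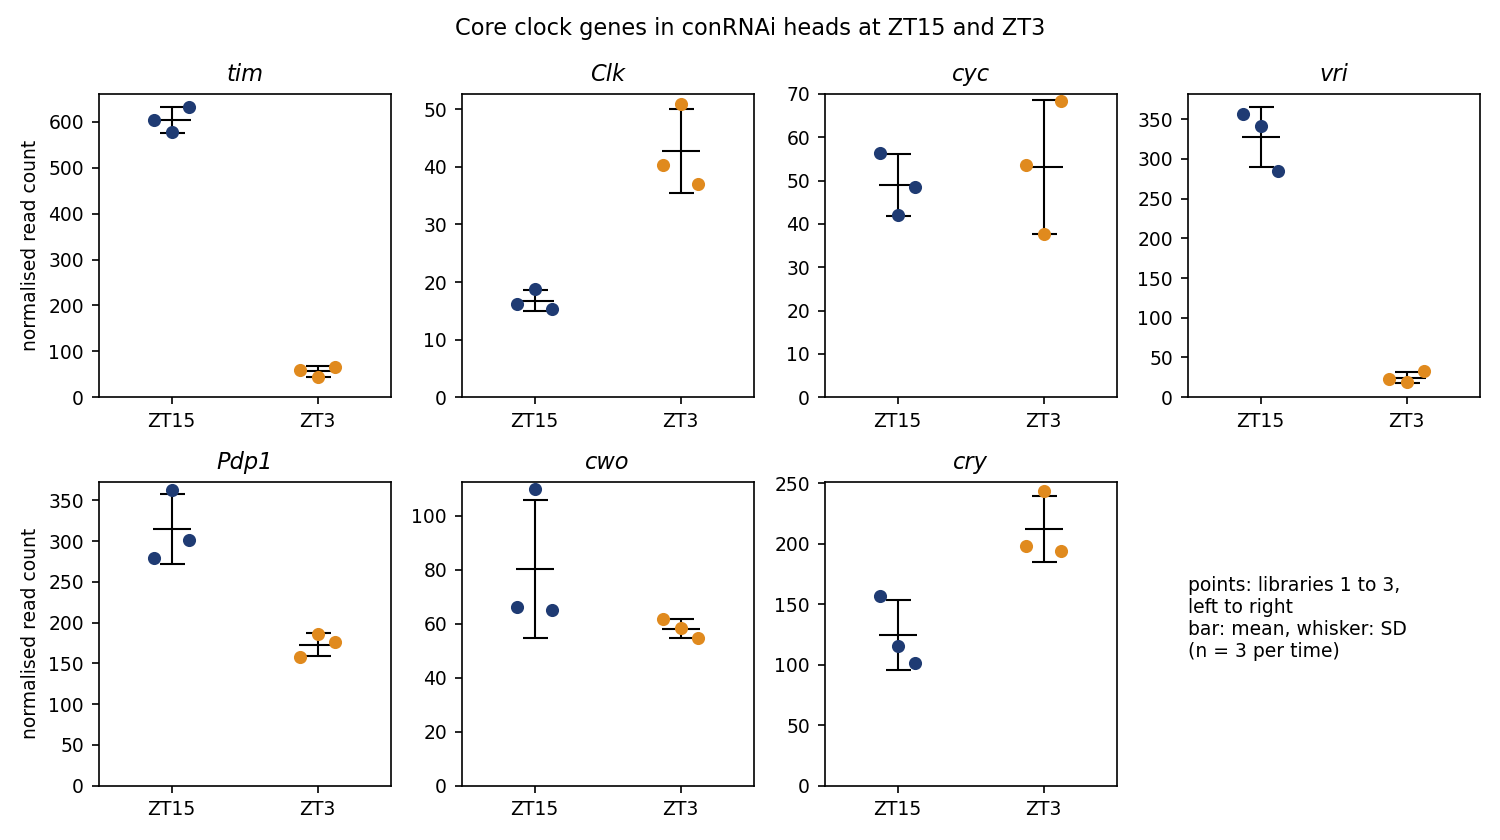
Normalised read count (y axis, from 0) of the 7 measured core clock genes in conRNAi heads at ZT15 (blue) and ZT3 (orange), with 1 point per library, the mean as a bar and the SD as a whisker (n = 3 per time). The points of tim, vri and Pdp1 lie higher at ZT15, those of Clk and cry lower, and those of cyc overlap.

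Of 17 measured kinase, phosphatase and ubiquitin ligase genes of the clock, 1 rose and 0 fell (5.88%, against 1.3% of all genes), and the median log2 difference was 0.01. The gene that rose was Usp8 (CG5798), which encodes a deubiquitinating enzyme, with 219.3, 237.0 and 337.4 at ZT15, against 57.5, 63.1 and 55.5 at ZT3 (log2 difference 2.13, limma adjusted p = 5.84e-05). Its ZT15 libraries all lay far above its ZT3 libraries. The kinase subunit gene CkIIbeta, next by p, had a log2 difference of 0.42 and did not pass (limma adjusted p = 0.526).

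Of 17 measured genes known as clock outputs in fly heads, 4 rose and 4 fell (47.1% called, against 1.3% of all genes). The list holds genes known to cycle in heads, so its counts are not independent evidence of a difference with time. The ecdysone-inactivating cytochrome P450 gene Cyp18a1 (CG6816) rose with 62.5, 76.4 and 68.1 at ZT15, against 29.9, 29.1 and 22.2 at ZT3 (log2 difference 1.33, limma adjusted p = 0.00019). The ubiquitin ligase gene gol (CG2679) had 279.5, 219.3 and 217.2 at ZT15, against 103.6, 128.6 and 66.6 at ZT3 (log2 difference 1.29, limma adjusted p = 0.000242). CG14275 and Slob also rose, by 1.28 and 1.02 on the log2 scale, and Slob encodes a protein that binds the Slowpoke potassium channel. Among the genes that fell, the UDP-glycosyltransferase gene Ugt35B1 (CG6649) had 115.1, 122.9 and 149.7 at ZT15, against 582.8, 420.9 and 550.9 at ZT3 (log2 difference -1.99, limma adjusted p = 2.36e-09). The gene takeout (to, CG11853), which encodes a relative of juvenile hormone binding proteins linked to feeding, had 257.7, 260.3 and 485.2 at ZT15, against 1687, 505.8 and 1204 at ZT3. Its ZT3 values spread widely and its ZT15 replicate 3 came close to ZT3 replicate 2. The log2 difference of -1.66 (limma adjusted p = 0.00545) did not pass without ZT3 replicate 1 (limma adjusted p = 0.059). Pdh and CG10513 were the other 2 that fell. Cyp6a21 had a log2 difference of -0.56 and passed with the replicate block (limma adjusted p = 0.0486) but not without it (0.327).

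The 15 largest increases at ZT15, from 1.29 to 3.70 on the log2 scale, comprised vri, tim, Usp8, Cyp18a1 and gol and 10 further genes. The gene rha (CG11908) had 91.2, 266.9 and 111.0 at ZT15, against 20.7, 37.6 and 37.9 at ZT3, a log2 difference of 2.14 (limma adjusted p = 0.00572). ZT15 replicate 2 was far above the other ZT15 libraries, and without it the limma adjusted p was 0.071 (without ZT3 replicate 1, 0.0581). CG5853 had 240.7, 232.6 and 193.2 at ZT15, against 89.2, 86.1 and 64.7 at ZT3, and CG31710 had 62.1, 51.0 and 58.9 at ZT15, against 24.7, 18.2 and 16.6 at ZT3. Their ZT15 means were 2.78 and 2.89 times the ZT3 means (limma adjusted p = 5.64e-05 and 0.000438), and both passed whichever library was left out. The genes js and CG4962 rose by 1.40 and 1.44, but js did not pass without ZT3 replicate 2 (limma adjusted p = 0.0573) and CG4962 did not pass without ZT15 replicate 1 (0.0669) or ZT3 replicate 3 (0.0687). CG15120 rose by 1.30, with 56.4, 127.4 and 84.0 at ZT15, against 34.5, 24.3 and 46.2 at ZT3. Its call (limma adjusted p = 0.0489) ended without ZT15 replicate 2 (0.355), ZT15 replicate 3 (0.128), ZT3 replicate 1 (0.124) or ZT3 replicate 2 (0.281). The other 4 of the 15, tobi, Obp99a, Lsp1beta and Cyp4d21, are given with the fat body, odorant-binding and sex-biased genes.

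The 15 largest decreases ranged from -1.18 to -2.72 on the log2 scale and comprised Clk, Ugt35B1, to, CG10513, Pdh and 10 further genes. CG34134 had 74.6, 75.3 and 41.7 at ZT15, against 479.3, 328.7 and 441.8 at ZT3, a mean 6.52 times lower at ZT15 (log2 difference -2.72, SE 0.28, limma adjusted p = 1.93e-06). Its level was lowest at ZT11 (mean 26.0) and highest at ZT23 (mean 1124). The cuticle protein gene Cpr72Ec (CG4784) had 426.0, 218.2 and 427.6 at ZT15, against 2424, 1184 and 2818 at ZT3 (log2 difference -2.55, limma adjusted p = 0.000144). In both groups replicate 2 was the lowest library. CG42329 had 24.1, 5.54 and 16.6 at ZT15, against 78.8, 52.2 and 67.5 at ZT3 (log2 difference -2.22, limma adjusted p = 0.00413), and its ZT15 replicate 2 value stood for 5 reads. All 3 of these genes passed whichever library was left out.

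Acsx3 and Pcyt2 were among the other large decreases. Acsx3 (CG11407), an acyl-CoA synthetase family member, had 39.8, 32.1 and 28.2 at ZT15, against 91.5, 81.3 and 74.9 at ZT3 (log2 difference -1.29, limma adjusted p = 0.00534). The gene Pcyt2 (CG18330) had 52.4, 18.8 and 55.8 at ZT15, against 94.9, 95.8 and 104.4 at ZT3 (log2 difference -1.34, limma adjusted p = 0.00606). Its ZT15 replicate 2 was the lowest of the 6. The very-long-chain acyl-CoA synthetase gene bgm (CG4501), whose difference was smaller than the 15 largest, fell to a mean 1.92 times lower (limma adjusted p = 0.00019), with 238.2, 198.3 and 229.4 at ZT15, against 375.7, 417.2 and 484.3 at ZT3. CG4842 and CG17646 fell by 1.22 and 1.18, and like Acsx3, Pcyt2 and bgm they passed whichever library was left out. CG17127 fell by 1.95 and also passed in those fits. CG10513, CG31189 and CG10431 had log2 differences of -1.78, -1.49 and -1.56 and did not pass in all of them. The limma adjusted p rose to 0.124 for CG10513 (without ZT3 replicate 2, and 0.0674 without ZT15 replicate 2), to at most 0.0676 for CG31189 (without ZT3 replicate 1, with ZT15 replicates 2 and 3 also needed) and to at most 0.181 for CG10431 (without ZT15 replicate 2, with every library but ZT15 replicate 1 needed).

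**Figure D2:**
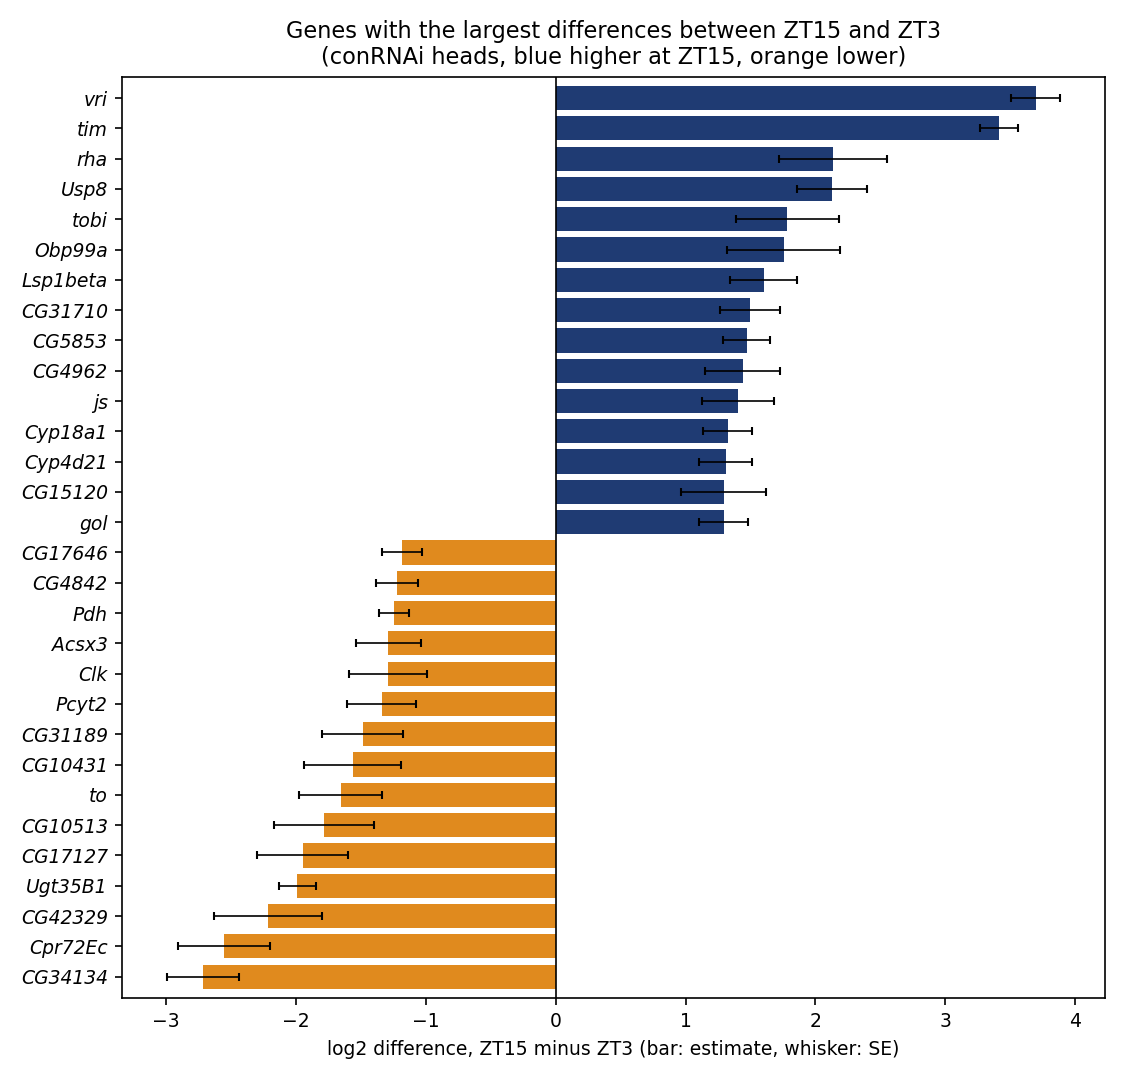
Log2 difference between ZT15 and ZT3 (x axis, ZT15 minus ZT3, whiskers SE) in conRNAi heads for the 15 genes with the largest increases (blue) and the 15 with the largest decreases (orange) among the genes that passed. The bars of vri and tim, at 3.70 and 3.41, exceed the other increases, which begin at 2.14, while CG34134 and Cpr72Ec lead the decreases at -2.72 and -2.55.

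Across the 6 times of conRNAi heads, the 40 genes higher at ZT15 had their highest mean at ZT15 in 29 cases, at ZT19 in 7 and at ZT11 in 4. Their lowest mean was at ZT3 in 28 cases, and at ZT7 and ZT23 in 6 each. The 57 lower genes had their lowest mean at ZT15 in 40 cases, at ZT19 in 9 and at ZT11 in 8. Their highest mean was at ZT3 in 29 cases, at ZT23 in 21 and at ZT7 in 7. The gene tim had means of 56.7 at ZT3, 101.9 at ZT7, 463.9 at ZT11, 604.4 at ZT15, 531.5 at ZT19 and 207.9 at ZT23. For vri the means were 24.7 at ZT3, 173.4 at ZT7, 279.5 at ZT11, 327.3 at ZT15, 151.4 at ZT19 and 46.8 at ZT23, and Usp8 was highest at ZT11 (398.3). The levels at ZT15 and ZT3 chose these genes, so the position of their extremes is a description. In the authors' deposited table, whose rhythm test the headers do not name, all 97 genes had a q under 0.05 in conRNAi, against 939 of 7444 genes (12.61%), but that test used the same libraries.

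**Figure D3:**
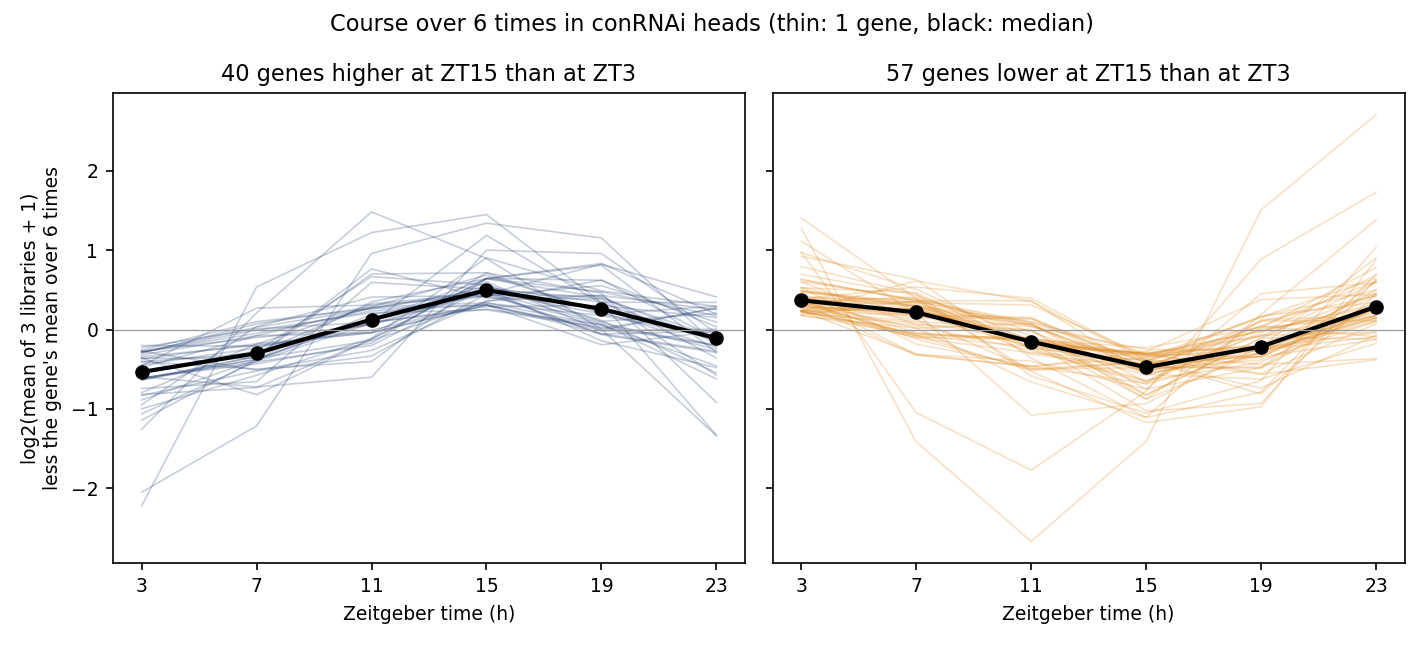
Course of the 40 genes higher at ZT15 (left, blue) and the 57 genes lower at ZT15 (right, orange) over Zeitgeber time (x axis, h), as log2(mean of 3 libraries + 1) less the gene's own mean over the 6 times (y axis). Thin lines are genes and the black line is the median, which for the higher genes reached 0.50 at ZT15 and -0.53 at ZT3, and for the lower genes -0.48 at ZT15 and 0.37 at ZT3.

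Photoreceptor genes moved in both directions. Of 32 genes in the list, 30 were measured, and 3 rose and 8 fell at ZT15 (36.7% called, against 1.3% of all genes). The median log2 difference was -0.06 over the 30 genes, against -0.0028 over all genes. The mean log2 level of the list was 9.60 to 9.72 in the ZT15 libraries and 9.78 to 9.80 in the ZT3 libraries. In bulk heads, fewer cells of a type and less RNA per cell cannot be told apart.

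Opsins, the light-absorbing proteins, differed by class. The ultraviolet opsin genes of the inner photoreceptor R7 both fell. Rh3 (CG10888) had 1972, 2165 and 1745 at ZT15, against 3930, 3053 and 3116 at ZT3 (log2 difference -0.78, SE 0.124, limma adjusted p = 0.000664). Rh4 (CG9668) had 1751, 1712 and 1472 at ZT15, against 2910, 2734 and 2642 at ZT3 (log2 difference -0.75, SE 0.0966, limma adjusted p = 6.62e-05). The groups of both genes lay far apart. The green opsin gene Rh6 (CG5192) of the inner photoreceptor R8 rose, with 1370, 1203 and 1262 at ZT15, against 913.7, 742.3 and 991.7 at ZT3 (log2 difference 0.54, SE 0.132, limma adjusted p = 0.0346). This call was lost on leaving out any 1 library other than ZT3 replicate 3, with limma adjusted p from 0.0667 (without ZT15 replicate 2) to 0.262 (without ZT3 replicate 2). The other 3 measured opsins did not pass. For ninaE, which encodes the main opsin of the outer photoreceptors, values were 43470, 33996 and 34981 at ZT15, against 32122, 27329 and 30730 at ZT3, apart by group but with a limma adjusted p of 0.454 (log2 difference 0.31). The blue opsin gene Rh5 and the ocellar opsin gene Rh2 had log2 differences of -0.05 and -0.10 (limma adjusted p = 0.983 and 0.936).

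The signalling machinery downstream of the opsins was also split. The scaffold gene inaD (CG3504) had 551.0, 652.4 and 474.2 at ZT15, against 927.5, 918.1 and 1090 at ZT3 (log2 difference -0.81, limma adjusted p = 0.000521). The eye protein kinase C gene inaC (CG6518) had 725.2, 634.6 and 684.0 at ZT15, against 1219, 878.1 and 1062 at ZT3 (log2 difference -0.62, limma adjusted p = 0.00385). The G protein subunit gene Gbeta76C (CG8770) had 939.1, 880.5 and 828.1 at ZT15, against 1502, 1526 and 1320 at ZT3 (log2 difference -0.71, limma adjusted p = 0.000144). In each of these genes all ZT15 libraries were below all ZT3 libraries, and none of the 3 calls depended on a single library. The myosin III gene ninaC (CG5125), by contrast, rose with 1037, 1087 and 907.9 at ZT15, against 622.0, 733.8 and 653.4 at ZT3 (log2 difference 0.59, limma adjusted p = 0.00572).

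The arrestin gene Arr1 (CG5711), whose protein binds and silences activated rhodopsin, had 18147, 17885 and 14772 at ZT15, against 11885, 11880 and 11400 at ZT3 (log2 difference 0.52, limma adjusted p = 0.0331). On leaving out any 1 library other than ZT15 replicate 3 it did not pass (limma adjusted p 0.0906 to 0.165). The second arrestin gene, Arr2, overlapped between the groups, with 30724, 21177 and 26928 at ZT15, against 31516, 27455 and 29433 at ZT3 (log2 difference -0.18, limma adjusted p = 0.867). The channel genes trp and trpl had log2 differences of 0.27 and 0.42 and did not pass (limma adjusted p = 0.454 and 0.365). Neither did norpA, the phospholipase C gene (log2 difference 0.10, limma adjusted p = 0.973), nor the G protein alpha subunit gene Galphaq (-0.12, 0.927). For ninaA, which encodes an opsin chaperone, the log2 difference of -0.42 passed with the replicate block (limma adjusted p = 0.0215) and not without it (0.529).

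Pdh, laza and Cds were the other 3 photoreceptor genes that fell. Pdh (CG4899), a dehydrogenase of the retinoid chromophore, had 3087, 2941 and 2946 at ZT15, against 6622, 6844 and 7826 at ZT3, the largest difference in the list (log2 difference -1.24, SE 0.117, limma adjusted p = 5.17e-07). The ZT15 libraries differed little among themselves and lay far below the ZT3 libraries, and the call held without each library. The lipid phosphatase gene laza (CG11440) had 80.3, 85.3 and 109.2 at ZT15, against 180.7, 174.6 and 139.6 at ZT3 (log2 difference -0.85, limma adjusted p = 0.00942), and did not pass without ZT15 replicate 1 (0.0717), ZT15 replicate 2 (0.0574), ZT3 replicate 1 (0.0646) or ZT3 replicate 2 (0.0572). The CDP-diacylglycerol synthase gene Cds (CG7962) had 475.3, 485.1 and 406.1 at ZT15, against 716.9, 690.1 and 601.7 at ZT3 (log2 difference -0.56, limma adjusted p = 0.0252). Its reads may be shared with other genes in the authors' counting, so its value is uncertain. The Cds call was lost on leaving out any 1 library other than ZT3 replicate 3 (limma adjusted p 0.0503 to 0.156).

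**Figure D4:**
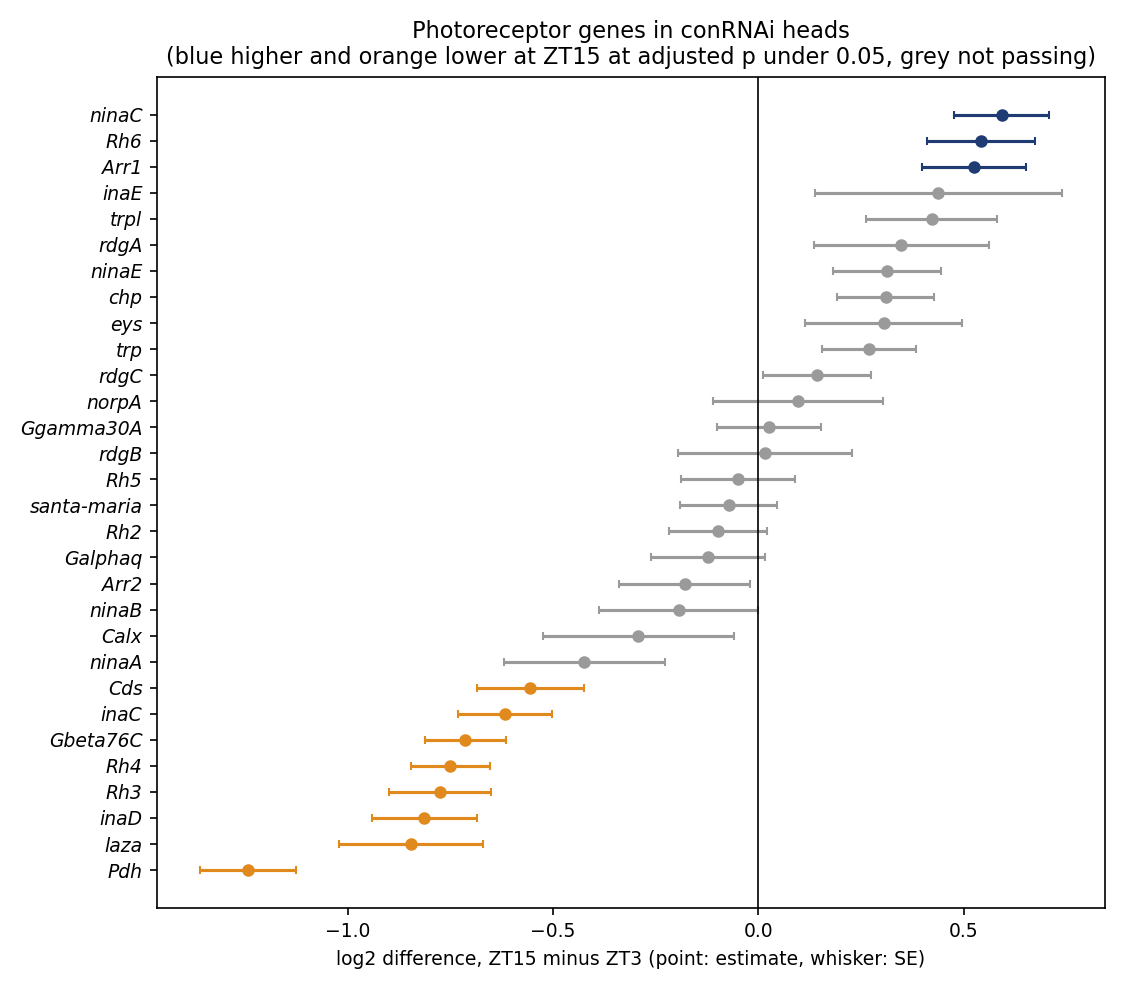
Log2 difference between ZT15 and ZT3 (x axis, ZT15 minus ZT3, whiskers SE) of the 30 measured photoreceptor genes in conRNAi heads. The 3 genes that rose (blue) lie at 0.52 to 0.59, the 8 that fell (orange) at -1.24 to -0.56, and the 19 that did not pass are grey.

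Fat body genes were the list with the largest median, 0.63 over 8 measured of 13, with 2 higher and 0 lower (25% called, against 1.3% of all genes). The storage protein gene Lsp1beta (CG4178) had 4911, 4386 and 3197 at ZT15, against 1772, 1197 and 1157 at ZT3 (log2 difference 1.60, SE 0.257, limma adjusted p = 0.000666), and passed whichever library was left out. The alpha-glucosidase gene tobi (CG11909), a target of insulin and adipokinetic hormone that also stands in the sugar sensing and maltase lists, had 304.4, 681.2 and 272.4 at ZT15, against 93.8, 121.3 and 119.2 at ZT3 (log2 difference 1.78, limma adjusted p = 0.0163). ZT15 replicate 2 was the highest library, and tobi did not pass without it (0.18) nor without ZT3 replicates 1, 2 or 3 (0.0931, 0.0542 and 0.0562). Obp99b passed with the replicate block (limma adjusted p = 0.00139) and not without it (0.214), at a log2 difference of 1.21. Lsp2, a second storage protein gene, had 4138, 5272 and 1868 at ZT15, against 2002, 1631 and 1337 at ZT3 and overlapped (log2 difference 1.07, limma adjusted p = 0.61). The lipophorin gene apolpp, the most abundant of the list, had a log2 difference of 0.08 (limma adjusted p = 0.966). The medians of the 8 genes were 0.43 in the libraries labelled RNAi (3 below 0) and 0.08 in conOE heads (4 below 0), so the larger median of conRNAi heads was not seen in conOE heads. The mean log2 level of the 8 markers was 10.4 to 10.65 in the ZT15 libraries and 9.70 to 9.97 in the ZT3 libraries, and its part in the values of Obp99a and Cyp4d21 was not tested. The larval genes Lsp1alpha, Lsp1gamma, Fbp1 and Fbp2 and the gene Fat-spondin of the list were not analysed here.

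Odorant-binding and sex-biased genes held 1 increase each (5.26% and 11.1% called, against 1.3% of all genes). Obp99a (CG18111) had 1022, 1513 and 512.8 at ZT15, against 174.3, 442.7 and 265.3 at ZT3 (log2 difference 1.75, limma adjusted p = 0.0435), and was the 1 of 19 odorant-binding genes that passed. Its ZT15 replicate 3 was close to ZT3 replicate 2, and the call ended without ZT15 replicates 1 or 2 (0.149 and 0.318) or ZT3 replicates 1 or 3 (0.243 and 0.158). The sex-biased P450 gene Cyp4d21 (CG6730, also sxe1) had 226.6, 179.4 and 261.9 at ZT15, against 113.3, 61.9 and 98.0 at ZT3 (log2 difference 1.31, limma adjusted p = 0.000621). It was the 1 of 9 sex-biased genes that passed, and it passed without each library. The female-enriched gene fit and the gene sxe2 had log2 differences of 1.01 and -0.52 (limma adjusted p = 0.715 and 0.517).

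The called cytochrome P450 genes rose, while the called UDP-glycosyltransferase and glutathione transferase genes fell. The called share was 3.7% of the cytochrome P450, 14.3% of the UDP-glycosyltransferase and 8% of the glutathione transferase genes, against 1.3% of all genes. Of 54 cytochrome P450 genes, Cyp18a1 and Cyp4d21 rose, and the median log2 difference was 0.02. Cyp4c3 had 24.95, 25.5 and 25.8 at ZT15, against 12.1, 9.70 and 9.24 at ZT3. It passed with the replicate block (limma adjusted p = 0.0497) and not without it (0.0563), as did Cyp4g15 at a log2 difference of -0.42 (0.022 and 0.0571). Both also passed by DESeq2 (adjusted p = 0.0428 and 0.0239). Of 14 UDP-glycosyltransferase genes 0 rose and 2 fell, Ugt35B1 and Ugt302C1, with a median of -0.29. Ugt302C1 had 114.9, 99.7 and 125.1 at ZT15, against 209.4, 208.6 and 151.6 at ZT3 (log2 difference -0.73, limma adjusted p = 0.0139), and its call ended without ZT15 replicate 2 (0.106) or ZT3 replicates 1 or 2 (0.0957 and 0.1). Ugt35A1, next in the list, had a log2 difference of -1.06 (limma adjusted p = 0.182, edgeR 0.0329, DESeq2 0.0064). Of 25 glutathione transferase genes 2 fell. GstE9 had 1405, 1384 and 1749 at ZT15, against 2421, 2131 and 2502 at ZT3 (log2 difference -0.64, limma adjusted p = 0.00239). GstZ2, an enzyme of tyrosine breakdown, fell by 0.91 (limma adjusted p = 0.00885) but did not pass without ZT15 replicate 1 (0.0652) or ZT3 replicate 1 (0.0773). It was also the 1 of 11 genes of tyrosine, tryptophan and eye pigment metabolism that passed (9.09%, against 1.3% of all genes). In that list Hpd had a log2 difference of -0.45 (limma adjusted p = 0.15).

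Among the 16 measured genes for cuticle proteins, Cpr11B rose while Cpr67B and Cpr72Ec fell (18.8% called, against 1.3% of all genes). Cpr11B had 125.0, 148.4 and 152.7 at ZT15, against 75.4, 75.2 and 79.5 at ZT3 (log2 difference 0.88, limma adjusted p = 0.00288). Cpr67B had 271.7, 172.8 and 190.8 at ZT15, against 359.0, 382.0 and 428.9 at ZT3 (log2 difference -0.90, limma adjusted p = 0.000438). Together with Cpr72Ec they passed whichever library was left out, and the median over the 16 genes was -0.15. Cpr49Ae had a log2 difference of -0.41 (limma adjusted p = 0.494).

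The neuronal lists held 1 called gene. Of 19 measured ion channel and excitability genes 1 passed (5.26%, against 1.3% of all genes), Slob (CG6772), with 213.0, 189.4 and 162.6 at ZT15, against 97.8, 87.3 and 89.7 at ZT3 (limma adjusted p = 0.00176). The potassium channel genes Ork1 and Irk3 had log2 differences of 0.68 and -0.59 (limma adjusted p = 0.388 and 0.563). None of 14 pan-neuronal genes passed, with a median of -0.08, and Nrx-1 and Syt1 were lowest by p at 0.67 and -0.39 (0.353 and 0.486). None of 25 neuropeptide genes passed, with a median of -0.05, and Dsk and Nplp3 stood at 0.46 and -0.64 (0.114 and 0.191). None of 16 genes of transmitter synthesis and transport passed, with a median of -0.06, and Hdc, the histamine synthesis gene, and VAChT stood at -0.70 and -0.44 (0.291 and 0.526). None of 10 activity-regulated genes passed either, with a median of 0.07, among them cbt itself, at 0.08 (0.967). CG17778 and CG8910 were lowest by p in that list at -0.44 and 0.32 (0.517 and 0.597).

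Markers of other head tissues did not pass. None of 11 glial genes passed (median log2 difference -0.05), though Indy, at -0.52, passed with the replicate block (limma adjusted p = 0.0321) and not without it (0.114), and nrv2 stood at -0.36 (0.222). None of 16 muscle genes passed (median 0.10), with TpnC41C and Act87E at 0.72 and 0.53 (limma adjusted p = 0.526 and 0.592). None of 9 hemocyte genes passed (median 0.07), with NimC1 and Col4a1 at 0.60 and 0.18 (0.711 and 0.812). None of 3 measured gut genes passed (median 0.20), with Mal-A1 at 0.38 (0.886), nor did the 1 measured oenocyte gene of 8. None of 8 chemoreceptor genes passed (median -0.02), with Or22c and Ir76b at 1.07 and 0.47 (0.27 and 0.797).

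The antimicrobial, stress, redox, autophagy, glycolysis and pentose phosphate lists held no called gene. None of 21 antimicrobial genes passed (median log2 difference 0.09), with BomBc3 and BomS3 at -0.35 and 0.29 (limma adjusted p = 0.588 and 0.646), and none of 19 heat shock and Turandot genes (median 0.11), with Hsp110 and Hsp22 at 0.36 and 1.22 (0.434 and 0.454). None of 13 redox genes passed (median 0.02), with MsrA and Prx5 at 0.59 and -0.20 (0.365 and 0.838), and none of 17 autophagy genes (median 0.11), with Atg9 and Atg4a at 0.37 and -0.19 (0.743 and 0.774). None of 13 glycolysis genes passed (median -0.07), with Pgk and Hex-A at -0.25 and -0.27 (0.515 and 0.529), and none of 5 pentose phosphate genes (median -0.14), with Pgd and Zw at -0.28 and -0.15 (0.617 and 0.881).

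Some metabolic genes passed with the replicate block and not in the same fit without it. None of 12 gluconeogenesis and glycerol genes passed in the fit of all 18 libraries without the block (median log2 difference -0.12). Gpdh1, also a sugar-sensing target, stood at -0.57 (limma adjusted p = 0.0674, with the block 0.00764). It also passed by DESeq2 (adjusted p = 0.0295) and without ZT15 replicate 3 (limma, 0.0182) or ZT3 replicate 1 (0.0368). Pepck1 stood at 0.61 (0.515, with the block 0.00678), while PCB, at -0.30 (0.18), passed in neither. None of 12 lipolysis and beta-oxidation genes passed in that fit (median -0.06), where the lipase gene bmm stood at 0.77 (limma 0.087, with the block 0.0271, by DESeq2 0.0464) and scu at -0.44 (0.304, with the block 0.011). None of 10 lipid synthesis and storage genes passed (median -0.05), with mdy and ACC at -0.56 and -0.37 (limma 0.122 and 0.202, DESeq2 0.0472 for mdy). None of 13 insulin and adipokinetic hormone genes passed (median 0.02), with AkhR and Ilp5 at 0.46 and 0.35 (0.38 and 0.62). In the sugar-sensing and maltase lists tobi was the 1 gene called of 8 and of 6 (12.5% and 16.7%, against 1.3% of all genes), with medians of 0.10 and 0.16. There Tret1-1 and Mal-A8 stood at -0.11 and -0.79 (0.92 and 0.658).

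No housekeeping list had a call. None of 80 cytoplasmic ribosomal protein genes passed (median log2 difference -0.0019), with RpL41 and RpS3 at -0.17 and 0.16 (limma adjusted p = 0.834 and 0.847), and none of 71 mitochondrial ribosomal protein genes (median 0.04), with mRpS33 and mRpS30 at -0.35 and -0.46 (0.515 and 0.55). None of 67 nuclear respiratory chain genes passed (median -0.09), with ND-B16.6 and ATPsynC at 0.28 and -0.24 (0.492 and 0.611), and none of 33 proteasome genes (median 0.05), with Rpt3 and Rpn7 at 0.30 and 0.21 (0.676 and 0.703). None of 12 ribosome biogenesis genes passed in the fit of all 18 libraries without the block (median -0.24). Fib, which encodes the nucleolar protein fibrillarin, stood at -0.83 (0.0903, with the block 0.0198, without ZT15 replicate 1 0.0417) and Nph at -0.43 (0.491).

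None of the 13 genes encoded in the mitochondrial genome passed in the fit of all 18 libraries without the block either. All 13 had log2 differences below 0, from -0.57 to -0.09 with a median of -0.31, the lowest of the lists, and the groups of 5 did not overlap, all 5 lower at ZT15 (13.5% of all genes did not overlap, in either direction). The values of ND3 and ND5 were nearly the same in each library (log2 difference -0.46 in both), so the 13 genes are not all separate measurements. ND2, which encodes a subunit of complex I, had 930.3, 816.3 and 994.4 at ZT15, against 1359, 1060 and 1226 at ZT3 (log2 difference -0.41, limma adjusted p = 0.0635). It passed with the block (0.0242), by DESeq2 (adjusted p = 0.0116) and without ZT15 replicate 3 (limma, 0.0491) or ZT3 replicate 2 (0.0272). ND1, another complex I gene, overlapped, with 1039, 714.4 and 1307 at ZT15, against 1860, 1059 and 1625 at ZT3 (log2 difference -0.57, limma adjusted p = 0.204). ND1 passed in 2 of the fits that left out 1 library (lowest limma adjusted p 0.0276), against 0.819 without ZT15 replicate 2. The medians of the 13 genes were -0.15 in the libraries labelled RNAi (12 below 0) and -0.57 in conOE heads (13 below 0). In all, 15 of the 41 lists had a called member and 63 of the 97 called genes stood in no list.

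Among called genes outside these lists, Inos (CG11143), the inositol-3-phosphate synthase gene, had 1746, 1613 and 1939 at ZT15, against 1130, 925.4 and 993.6 at ZT3 (log2 difference 0.80, limma adjusted p = 0.000236). The gene lovit (CG40467), which encodes a vesicular transporter for histamine in photoreceptors, had a mean of 200.8 ± 12.6 at ZT15, against 132.4 ± 14.5 at ZT3 (SD, n = 3 each). It lost its call (limma adjusted p = 0.0139) without ZT15 replicate 2 (0.0855) or ZT3 replicates 1 or 2 (0.066 and 0.0944). Cipc (CG31324), named after a mammalian CLOCK-interacting protein, had 104.8, 158.4 and 96.9 at ZT15, against 39.1, 78.8 and 49.0 at ZT3 (log2 difference 1.12, limma adjusted p = 0.00695, without ZT15 replicate 2 0.08 and without ZT3 replicate 1 0.0675). Epac (CG34392), a cAMP-activated exchange factor for Rap, rose by 1.05 (limma adjusted p = 0.0265), with a call lost without ZT15 replicates 1 or 2 (0.157 and 0.13) or ZT3 replicates 1 or 2 (0.109 and 0.122). The ankyrin gene Ank2 (CG34416) had 836.4, 842.9 and 661.3 at ZT15, against 1433, 1369 and 1296 at ZT3 (log2 difference -0.81, limma adjusted p = 0.000232). Nop17l and PolZ1 were both called higher, but their values followed each other with r = 0.992 over the 36 libraries, so their separate values are uncertain. All of these were named with their values known.

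The same difference was then taken in libraries of other flies. The RNAi target cbt (CG4427) had 316.6, 373.1 and 291.4 at ZT15 in the libraries labelled RNAi, against 323.1, 362.2 and 267.5 in conRNAi, and 323.0, 308.8 and 266.6 at ZT3 in the libraries labelled RNAi, against 233.6, 327.5 and 345.7 in conRNAi. These values overlapped at both times, so the group is called by its label. In the libraries labelled RNAi, 39 of 7444 genes were called (0.524%), 17 higher (0.228%) and 22 lower (0.296%). In conOE heads, with 2 libraries per time, 11 of 7648 genes were called (0.144%), 5 higher (0.0654%) and 6 lower (0.0785%). Of the 40 genes higher in conRNAi, all 40 had the same sign in the libraries labelled RNAi (14 called there) and 38 of 39 measured in conOE (4 called), against about even shares of all genes (50.89% and 50.82% higher). Of the 57 lower genes, 56 had the same sign in the libraries labelled RNAi (20 called) and 54 of 56 in conOE (5 called). No library is shared between these groups. Across 6995 genes, the difference between replicates 1 and 2 of conRNAi correlated with that of the libraries labelled RNAi at -0.0221 at ZT15 and 0.125 at ZT3, and with that of conOE at 0.229 at ZT15 and 0.0943 at ZT3. Whether libraries with the same number share a preparation was not tested.

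Among the clock genes, tim, vri, Pdp1, Clk and cwo lay apart by time in both groups, while cry and cyc overlapped in the libraries labelled RNAi. In the libraries labelled RNAi and in conOE, vri passed (limma adjusted p = 1.04e-07 and 1.74e-05) and cwo did not (0.518 and 0.815). Pdp1 passed in the libraries labelled RNAi (limma adjusted p = 0.00489) but not in conOE (0.446). The gene tim had 512.2, 688.2 and 769.5 at ZT15 in the libraries labelled RNAi, against 34.0, 47.6 and 68.5 at ZT3, and 868.0 and 925.4 at ZT15 in conOE, against 67.8 and 49.9 at ZT3. Clk had 18.1, 24.0 and 27.3 at ZT15 in the libraries labelled RNAi, against 36.8, 48.9 and 68.5 at ZT3, and 13.8 and 11.7 at ZT15 in conOE, against 50.6 and 46.0 at ZT3. The Clk groups lay apart in both, but its log2 differences of -1.09 and -1.84 did not pass there (limma adjusted p = 0.302 and 0.0714). For cry, values of 163.4, 203.5 and 134.2 at ZT15 in the libraries labelled RNAi overlapped those of 220.1, 220.0 and 166.9 at ZT3. Rh3 and Rh4 had log2 differences of -0.58 and -0.72 in the libraries labelled RNAi and -0.63 and -0.83 in conOE, and Pdh had -1.68 and -1.33. Rh3, Rh4 and Pdh passed in the libraries labelled RNAi (limma adjusted p = 0.0349, 0.0142 and 5.31e-08) but not in conOE (0.15, 0.0766 and 0.15).

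A test of the difference between genotypes, RNAi minus conRNAi, called 0 of 7444 genes (0%, limma), with 222 genes at an unadjusted p under 0.05, and edgeR on recovered reads called 0, with 250 genes at that level. The lowest p values belonged to tadr, alpha-PheRS, Socs44A, Cbl and CG15096, all with a limma adjusted p of 0.999. CG15096 was the 1 of these 5 called in conRNAi, with 773.9, 844.0 and 799.3 at ZT15, against 1137, 1127 and 1304 at ZT3 (log2 difference -0.56), while its log2 differences were 0.004 in the libraries labelled RNAi and 0.03 in conOE. In tadr the log2 difference was 0.75 in the libraries labelled RNAi and -0.22 in conRNAi, in alpha-PheRS -0.96 and 0.11, in Socs44A -0.65 and 0.21, and in Cbl 0.59 and -0.72.

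**Figure D5:**
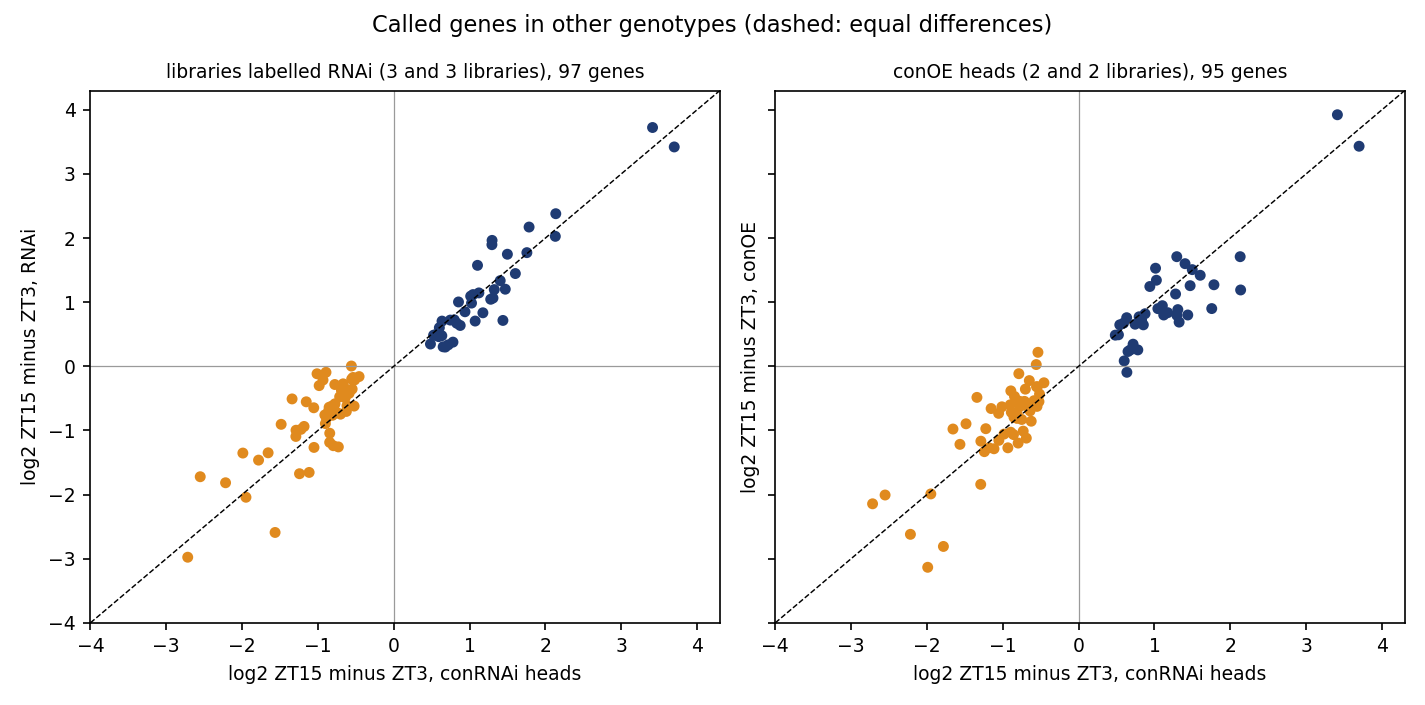
Log2 difference between ZT15 and ZT3 of the called genes in the libraries labelled RNAi (left, y axis, 97 genes) and in conOE heads (right, y axis, 95 genes), against the difference in conRNAi heads (x axis); blue genes were higher and orange genes lower at ZT15 in conRNAi. The dashed line marks equal differences, and 40 of 40 blue and 56 of 57 orange genes have the same sign in the libraries labelled RNAi.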

How the data were processed

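RNA of whole heads was isolated with TRI reagent and poly(A) RNA was selected after fragmentation, per the labels' protocols. Bowtie, TopHat and the build dm3 are named in the submitters' processing notes, and no source used here names the counting tool, annotation or filter. The deposited values are a normalised signal per transcript and library. From the values, each is a read count that the authors divided by a size factor of the library: all 303948 values of the RNAi table were whole reads within 0.05 reads. Every listed transcript had at least 1 read in every library, so genes silent in some library are absent. The authors' deposited p-values and q-values of a rhythm test were used for 1 count only. Other deposited columns, the highest and lowest values over the libraries and their ratio, the authors' means, periods, phases and amplitudes, were not used.

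For each gene the transcript of highest mean was kept, which turned 8443 transcripts into 7444 genes, and 7648 genes in the separately normalised overexpression table that holds conOE. Symbols came from RefSeq (Release 6 plus ISO1 MT) through CG numbers, 7186 by locus tag and 176 by synonym, while 82 kept the listed name. That assembly is not dm3, so no coordinates are given, and no sequences were analysed here. In 78 genes the values equalled those of another gene. No pair of replicate libraries matched within counting noise (a chi-square of 7.72 to 18.3 for each degree of freedom).

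The main test was limma-trend 3.58.1 (R 4.3.3) on log2(value + 1), which understates the change of low genes, with time as a factor over all 18 conRNAi libraries, the contrast ZT15 minus ZT3 and Benjamini-Hochberg adjustment over all genes. The minimum mean of 1 removed 0 genes. Fits were tested on simulated data. Same-numbered libraries deviated together from their group means (r = 0.105, 0.121 and 0.169 between ZT15 and ZT3, all above the 0.1 of the rule used). Libraries of unlike number had r from -0.162 to 0.0145. The labels do not say that the numbers link libraries, so the pairing rests on this rule alone. A replicate block is given where it changes a call. In the libraries labelled RNAi the r values of same-numbered libraries were -0.0032, 0.032 and 0.161. There, ZT15 replicate 1 and ZT3 replicate 2, of unlike number, had an r of 0.13. In conOE 2 numbers were shared. The alternatives were edgeR 4.0.16 and DESeq2 1.42.0 on recovered reads, other scalings, pseudocounts, filters and sets of libraries, summed transcripts and leaving out each library. The sample comparison, tests and 41 gene lists were chosen with earlier results of these data known, and the 13 mitochondrially encoded genes were matched by their RefSeq symbols after their values were seen. Named genes were all measured core clock genes, the 15 largest differences in each direction among called genes whose groups do not overlap, 2 to 4 members of lowest p per list and the 5 lowest p of the interaction. Further photoreceptor and fat body genes, bgm, cbt, Cyp6a21 and the called genes outside the lists were named with their values known. One gene is not reported here. The count tests were planned for count tables and limma for normalised values, and the tables held the second.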

Additional observations from a re-analysis of the deposited data

How the results depend on the processing

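Counts of called genes between ZT15 and ZT3 in conRNAi heads were 97 with a pseudocount of 0.5, 99 with a pseudocount of 5, 98 with a minimum mean of 10, 97 after median-ratio rescaling or TMM scaling, 96 with summed transcripts, 77 with the 6 libraries alone, 68 with all 36 libraries, 109 with edgeR and 129 with DESeq2 (291 genes without an adjusted p). The replicate block gave 154 (96 lower). Leaving out 1 library gave 59 to 92 genes in all and 32 to 57 lower genes. Of the 97 genes, 41 were called under all 17 alternatives and 45 (20 higher and 25 lower) without each library, and none turned direction. Rescaling put the median log2 difference of all genes at 0.0028 (median-ratio) and 0.0038 (TMM). In the libraries labelled RNAi the replicate block, where the numbers did not pair the libraries by the rule used, gave 59 genes against 39, and leaving out 1 library gave 22 to 28. In conOE heads the block gave 14 genes against 11, and leaving out 1 library, where the lone library left at that time is assumed to vary like the other groups, gave 6 to 10. The interaction called 0 genes under every alternative run. Among genes that did not pass, log2 differences turned sign on leaving out 1 library and ranged from -0.309 to 0.114 in cyc (above 0 without ZT15 replicate 2 or ZT3 replicate 3), -0.0267 to 0.373 in alpha-PheRS (below 0 without ZT15 replicate 1 or 3), -0.0941 to 0.199 in cbt (below 0 without ZT15 replicate 2 or ZT3 replicate 1), -0.134 to 0.0516 in Rh5 (above 0 without ZT15 or ZT3 replicate 3) and -0.259 to 0.34 in norpA (below 0 without ZT15 replicate 2). With all 36 libraries the calls of Cpr11B (limma adjusted p = 0.796), Obp99a (0.445), CG15120 (0.347), Epac (0.227), CG10431 (0.192), Pcyt2 (0.19), PolZ1 (0.133), Rh6 (0.0889), Nop17l (0.0868), CG31189 (0.0746), lovit (0.0735), Arr1 (0.0698), CG17127 (0.0555), Slob (0.0504) and Cds (0.05004) were lost, as were, with the 6 libraries alone, those of PolZ1 (0.0984), lovit (0.0886), Arr1 (0.078), Nop17l (0.0752), Rh6 (0.0731), Cds (0.0602), Ugt302C1 (0.0602), Pcyt2 (0.0549), cry (0.0531) and Epac (0.0507), and CG15120 lost its call with summed transcripts (0.0539). The losses with all 36 or with the 6 libraries are listed only for genes named above. Of all 97 genes, 67 were still called with all 36 libraries and 73 with the 6 libraries alone. Obp99a was not called by DESeq2 (adjusted p = 0.0958). The cause was not tested. With 3 libraries a group, smaller differences than those called may go undetected.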
